A study of Homo sapiens with 12 samples.

Results

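The genes described here are 9 immediate-early genes, chosen by name from the 58233 genes of the raw count table: EGR1, EGR2 and EGR3, IER2, IER3 and IER5, SGK1, TRIB1 and CYR61. Their messages were followed in VAL and OCI-LY3, established human lines grown from the B-cell cancer DLBCL (diffuse large B-cell lymphoma). The cells received AZ5576, a selective inhibitor of CDK9, at 300 nM. The 6 groups were VAL untreated (0 h), VAL after 3 h, VAL after 6 h, OCI-LY3 untreated (0 h), OCI-LY3 after 3 h and OCI-LY3 after 6 h, each with 2 libraries of poly(A)+ RNA, 12 in all. The 0 h cells were taken when the drug was added to the others, whereas the text of the series mentions vehicle-treated cells; neither vehicle nor time in the plate can be told apart from the drug. Per the labels all VAL libraries shared one sequencing lane and all OCI-LY3 libraries another, and replicate 1 of each VAL group carries the mark resubmitted.

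Immediate-early genes are transcribed within minutes of a signal without new protein being made, from promoters where polymerase II already waits. Growth factor, antigen receptor and stress signals reach many of them through the ERK kinases, the serum response factor SRF, which binds the CArG box, and CREB, which binds TGACG. CDK9, the kinase of P-TEFb, releases paused polymerase into elongation, and the messages of these genes are typically short-lived, often through AUUUA elements in the 3′ untranslated region. EGR1, EGR2 and EGR3 are zinc-finger transcription factors. IER2, IER3 and IER5 are small regulators of transcription, survival and the heat shock response, SGK1 is a kinase, TRIB1 a pseudokinase, and CYR61 a secreted matrix protein.

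Promoters in the RefSeq table (GRCh38.p14) were examined for 5 of 9 genes: EGR1, EGR2, IER2, IER5 and SGK1. IER3 and CYR61 were not found there, and the promoters of EGR3 and TRIB1 were left out, so their motifs were not examined. The windows shown are the 250 bases before the start, 5′ to 3′ on the strand of the gene, with CArG boxes (CC, 6 bases of A or T, GG) in capitals. EGR1 and EGR2 are shown because theirs are the promoters with a CArG box among these 5, and SGK1 because it fell furthest in VAL and has none. EGR2 and SGK1 have 3 starts each in the table, and the one nearest the principal GENCODE transcript is shown.
EGR1, chr5:138465229-138465478, plus strand: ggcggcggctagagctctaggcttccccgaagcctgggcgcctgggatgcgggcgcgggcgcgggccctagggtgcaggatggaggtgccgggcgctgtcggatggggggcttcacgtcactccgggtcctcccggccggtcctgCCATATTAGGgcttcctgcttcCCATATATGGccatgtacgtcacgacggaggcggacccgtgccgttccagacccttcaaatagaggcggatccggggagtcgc
EGR2, chr10:62816367-62816616, minus strand: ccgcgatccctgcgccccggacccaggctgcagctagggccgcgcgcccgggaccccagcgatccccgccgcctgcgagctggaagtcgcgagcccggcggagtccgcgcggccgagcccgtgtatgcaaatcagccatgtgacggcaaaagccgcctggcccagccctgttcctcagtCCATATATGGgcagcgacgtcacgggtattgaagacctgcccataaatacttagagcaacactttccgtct
SGK1, chr6:134174867-134175116, minus strand: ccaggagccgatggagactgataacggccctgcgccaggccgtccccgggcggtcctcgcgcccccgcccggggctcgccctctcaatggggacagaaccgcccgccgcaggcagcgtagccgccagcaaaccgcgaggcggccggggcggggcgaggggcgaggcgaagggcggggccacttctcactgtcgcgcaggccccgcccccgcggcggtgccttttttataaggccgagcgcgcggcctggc
Counting back from the start, with -1 the base before it, the CArG boxes of EGR1 began at -105 and -83, and that of EGR2 at -71. A CArG box was present in 1.16% of 35116 promoter windows of this length, read on both strands. TGACG, which does not overlap these boxes, was found at 2 places in EGR1 and 2 in EGR2, and in 21.2% of windows. The SGK1 window held TATAAA on the opposite strand and GGGGCGGGG at 2 places, motifs present in 10.7% and 15.1% of windows. These are matches of letters, and occupancy was not measured.

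Few exons were common among these genes, a feature that the choice by name did not use. In GENCODE release 29 (GRCh38) the principal transcript of 6 of 9 has at most 2 exons, against 6.88% of 12583 tested protein-coding genes. IER2 (chr19:13150415-13154908, plus strand) and IER5 (chr1:181088712-181092899, plus strand) have 1 exon. EGR1 (chr5:138465490-138469315, plus strand), EGR2 (chr10:62811996-62919900, minus strand), EGR3 (chr8:22687659-22693302, minus strand) and IER3 (chr6:30743199-30744554, minus strand) have 2. TRIB1 (chr8:125430321-125438405, plus strand) has 3, CYR61 (chr1:85580761-85583962, plus strand) has 5, and SGK1 (chr6:134169246-134318112, minus strand) has 12, against a median of 9 for tested coding genes. An AUUUA element was present in the 3′ untranslated region of 8 of 9, the exception being IER2, against 67.7% of tested coding genes. At least 5 such elements were found in IER3, IER5, SGK1 and CYR61, which is 4 of 9 against 27.9%.

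Depth was 23175082 to 39715536 counts per library. All 9 genes passed the filter on low counts and were among 16374 tested. CYR61 passed through the treated groups alone, so the filter worked toward higher values there. Its values are described, and its tests are not used. In both lines 7 of 7 B-cell markers were above 1 CPM (counts relative to library size, scaled by TMM, the trimmed mean of M-values) and 0 of 5 T-cell markers were. Among myeloid markers MPO went from 0 CPM at 0 h to 10.2 in VAL and 10.3 in OCI-LY3 at 6 h; the part of such shifts in the results was not tested. The share of counts from mitochondrially encoded mRNAs was 1.74% to 2.37% at 0 h and 3.17% to 6.90% in treated libraries. In bulk RNA, fewer cells of a kind and less RNA per cell cannot be told apart. Separate cultures are not stated, so the p-values reflect nothing more than how these libraries varied. The counting intervals given cover counting error only.

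Before treatment IER5 was the most abundant of the 9 per kilobase of exon in both lines. In VAL the mean level was 22 CPM per kb for IER5, 11 for TRIB1, 8.52 for IER2, 2.23 for IER3, 1.69 for SGK1, 0.871 for EGR1, 0.390 for EGR2, 0.114 for EGR3 and 0.0149 for CYR61. The 2 libraries of neighbouring genes in this order did not overlap. In OCI-LY3 the order was IER5 at 11.8 CPM per kb, IER2 at 7.88, SGK1 at 4.50, TRIB1 at 3.54, EGR1 at 0.525, IER3 at 0.112, EGR2 at 0.0922, EGR3 at 0.0556 and CYR61 at 0.0241, again without overlap between neighbours. IER5 stayed first and IER2 was second in every group of treated cells. SGK1 had the lowest mean per kb in treated VAL, at 0.0688 CPM per kb at 3 h, where its libraries overlapped those of EGR2, and 0.0555 at 6 h. The rank of SGK1 depends on its union of exons, at 9992 bases the longest of the 9. Without division by length it was not lowest, at 0.687 CPM in VAL at 3 h against 0.259 for EGR2.

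IER3 showed the widest gap between the untreated lines, but the filter on low counts fixed its direction. Relative to VAL, 5 of 9 genes, counting IER3, were lower in untreated OCI-LY3, 1 was higher and 3 did not pass. Of all tested genes 26.5% were lower and 29.8% higher. IER3, a stress-induced modulator of apoptosis, was 19.9-fold lower in OCI-LY3 by pooled counts (13 against 246, 95% counting interval 11.4 to 37.8). Its log2 difference was -4.28 ± 0.356 (SE). IER3 passed the filter through VAL alone, so it had to be lower in OCI-LY3, and its test is not used. EGR2 (-2.07 ± 0.316), TRIB1 (-1.63 ± 0.116), IER5 (-0.89 ± 0.121) and EGR1 (-0.73 ± 0.216) were also lower. SGK1 was the gene that was higher in OCI-LY3, by 1.42 ± 0.183 on the log2 scale (edgeR's quasi-likelihood test with Benjamini-Hochberg adjustment, adjusted p = 5.78e-05). The others gave -1.03 for EGR3, which also passed the filter through VAL alone (edgeR adjusted p = 0.0532), -0.11 for IER2 (0.454) and 0.62 for CYR61 (0.600). The EGR1 difference did not pass without VAL 0 h replicate 2 (edgeR adjusted p = 0.0672) or OCI-LY3 0 h replicate 2 (0.0529), and the lane is shared with the line, so lane and line cannot be told apart.

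After 3 h in VAL 7 of the 8 genes other than CYR61 fell: SGK1, TRIB1, IER5, IER2, EGR2, IER3 and EGR1. EGR3 did not pass. Of all tested genes 25.1% fell and 29.6% rose. The median log2 change of the 8 was -2.52, against 0.16 for all tested genes. After 6 h in VAL 6 of the 8 fell, and EGR1 and EGR3 did not pass, with 32.2% of all genes lower and 34% higher, and medians of -1.80 and 0.10. The 3 h and 6 h comparisons of a line share their 0 h libraries.

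After 3 h in OCI-LY3 6 of the same 8 fell: TRIB1, SGK1, IER5, IER2, EGR2 and EGR1. IER3 and EGR3 did not pass. Of all tested genes 24.3% fell and 17.8% rose, and the medians were -1.81 for the 8 and 0.00 for all. After 6 h in OCI-LY3 the genes still lower were TRIB1, SGK1 and IER2. The other 5 did not pass, with 33.4% of all genes lower and 28.1% higher, and medians of -0.12 and -0.01.

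**Figure D1:**
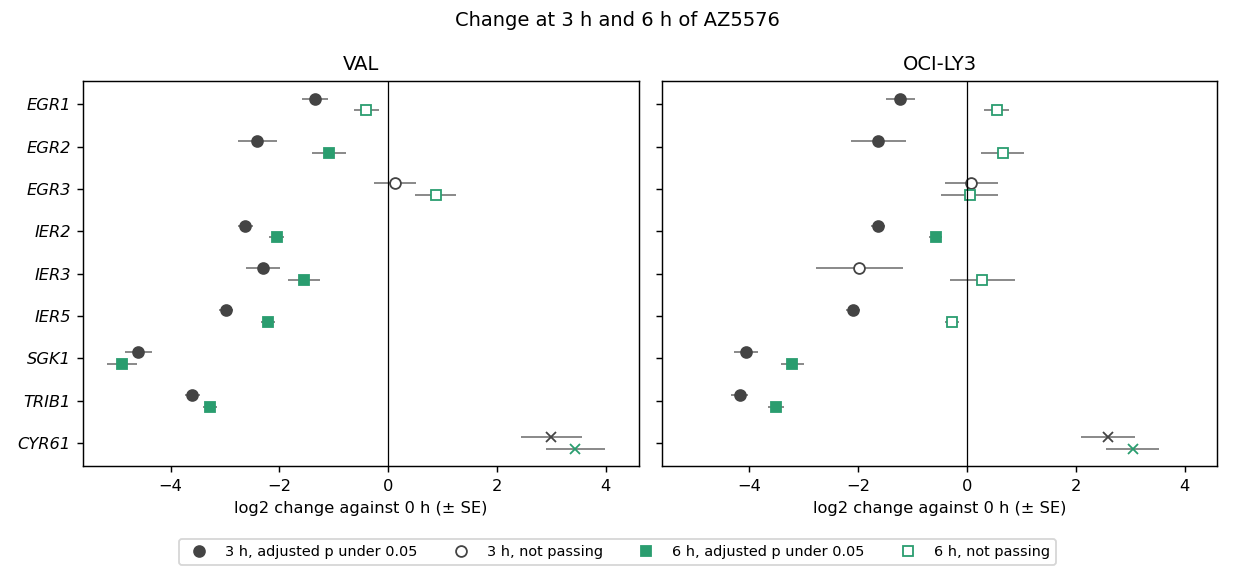
Log2 change of each gene against 0 h in VAL (left) and OCI-LY3 (right), with bars for the SE, at 3 h (circles) and 6 h (squares); filled symbols have an edgeR adjusted p under 0.05, and crosses mark CYR61, whose test is not used. SGK1 and TRIB1 lie furthest to the left in both lines, CYR61 lies to the right, and in OCI-LY3 EGR1, EGR2, IER3 and IER5 lie near 0 at 6 h.

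SGK1, the serum- and glucocorticoid-induced kinase that phosphorylates ion transport regulators and FOXO factors, lost the largest share of its message in VAL. Its level there was 17.2 and 16.5 CPM at 0 h, 0.817 and 0.558 at 3 h, then 0.681 and 0.428 at 6 h. The OCI-LY3 libraries gave 44.6 and 45.4 CPM at 0 h, 3.28 and 2.10 at 3 h, then 4.26 and 5.45 at 6 h. Every treated library lay far below both untreated libraries of its line. The mean left at 3 h was 4.08% of the 0 h level in VAL and 5.99% in OCI-LY3, and at 6 h it was 3.29% and 10.8%. The log2 changes in VAL were -4.59 ± 0.255 at 3 h (edgeR adjusted p = 2.58e-07) and -4.89 ± 0.27 at 6 h (1.23e-07). The OCI-LY3 changes were -4.06 ± 0.217 (edgeR adjusted p = 3.53e-07) and -3.21 ± 0.207 (3.90e-07).

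TRIB1, the pseudokinase that brings C/EBP factors to the ubiquitin ligase COP1, fell in both lines and stayed low. In VAL its level was 47.3 and 43.4 CPM at 0 h, 3.82 and 3.62 at 3 h, then 4.69 and 4.66 at 6 h. The OCI-LY3 values were 14.4 and 14.9 CPM at 0 h, 0.766 and 0.841 at 3 h, then 1.44 and 1.14 at 6 h. Treated and untreated libraries did not overlap in either line. The log2 changes were -3.60 ± 0.132 and -3.28 ± 0.13 in VAL (edgeR adjusted p = 4.41e-08 and 4.45e-08), and -4.18 ± 0.157 and -3.51 ± 0.152 in OCI-LY3 (1.07e-07 and 6.91e-08). At 6 h 10.3% of the 0 h level was left in VAL and 8.80% in OCI-LY3.

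IER5, which binds the phosphatase PP2A and the heat shock factor HSF1, fell at 3 h in both lines but differed between them at 6 h. In VAL its level was 91.6 and 92.3 CPM at 0 h, 11.6 and 11.7 at 3 h, then 17.6 and 22.2 at 6 h. In OCI-LY3 it was 51.2 and 48.1 CPM at 0 h, 12 and 11.2 at 3 h, then 43.1 and 38.8 at 6 h. At 3 h all 4 treated libraries of both lines thus held nearly the same level, from starting levels that differed. The log2 change in VAL was -2.98 ± 0.133 at 3 h and -2.21 ± 0.128 at 6 h (edgeR adjusted p = 9.00e-08 and 1.57e-07). In OCI-LY3 both 6 h libraries lay below both 0 h libraries, as in 44.1% of all tested genes. The log2 change there was -2.09 ± 0.129 at 3 h (edgeR adjusted p = 6.48e-07), while the value at 6 h was -0.28 (0.0695). That value passed without any one of the 4 treated VAL libraries (edgeR adjusted p = 0.0219 to 0.0440), in limma-voom (0.0498) and in OCI-LY3 fitted alone (0.0120), and its range over all alternatives was 1.43e-08 to 1.

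IER2, a nuclear protein induced by serum, had nearly the same level in both untreated lines. In VAL it stood at 26.3 and 26.1 CPM at 0 h, 3.89 and 4.58 at 3 h, then 5.79 and 6.90 at 6 h. In OCI-LY3 it stood at 23.7 and 24.7 CPM at 0 h, 8.17 and 7.40 at 3 h, then 15.9 and 16.4 at 6 h. Treated libraries were below untreated ones at both times, and those of OCI-LY3 lay above those of VAL. The log2 changes were -2.63 ± 0.137 and -2.05 ± 0.134 in VAL (edgeR adjusted p = 1.91e-07 and 3.32e-07) and -1.64 ± 0.13 and -0.58 ± 0.125 in OCI-LY3 (3.06e-06 and 0.00192).

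IER3 was measured well in VAL only. There it stood at 3.05 and 3.01 CPM at 0 h, 0.588 and 0.637 at 3 h, then 1.06 and 0.999 at 6 h. Its log2 changes in VAL were -2.30 ± 0.307 and -1.55 ± 0.291 (edgeR adjusted p = 0.000105 and 0.000725), with no overlap between treated and untreated libraries. In OCI-LY3 it had 6 and 7 counts at 0 h, 0 and 2 at 3 h, then 2 and 6 at 6 h. The count of 0 allows up to 0.109 CPM, set by 3 counts. The change at 3 h in OCI-LY3 was -1.98 (edgeR adjusted p = 0.0690), and the pooled counts gave a ratio 4.27-fold lower with an interval of 0.966 to 38.9, so a fall was not detectable at this depth. Without OCI-LY3 3 h replicate 2 the adjusted p was 0.0312, resting on the library with no count; the range over all alternatives was 0.00149 to 0.423. At 6 h the value was 0.28 (edgeR adjusted p = 0.723), and the libraries overlapped those at 0 h.

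**Figure D2:**
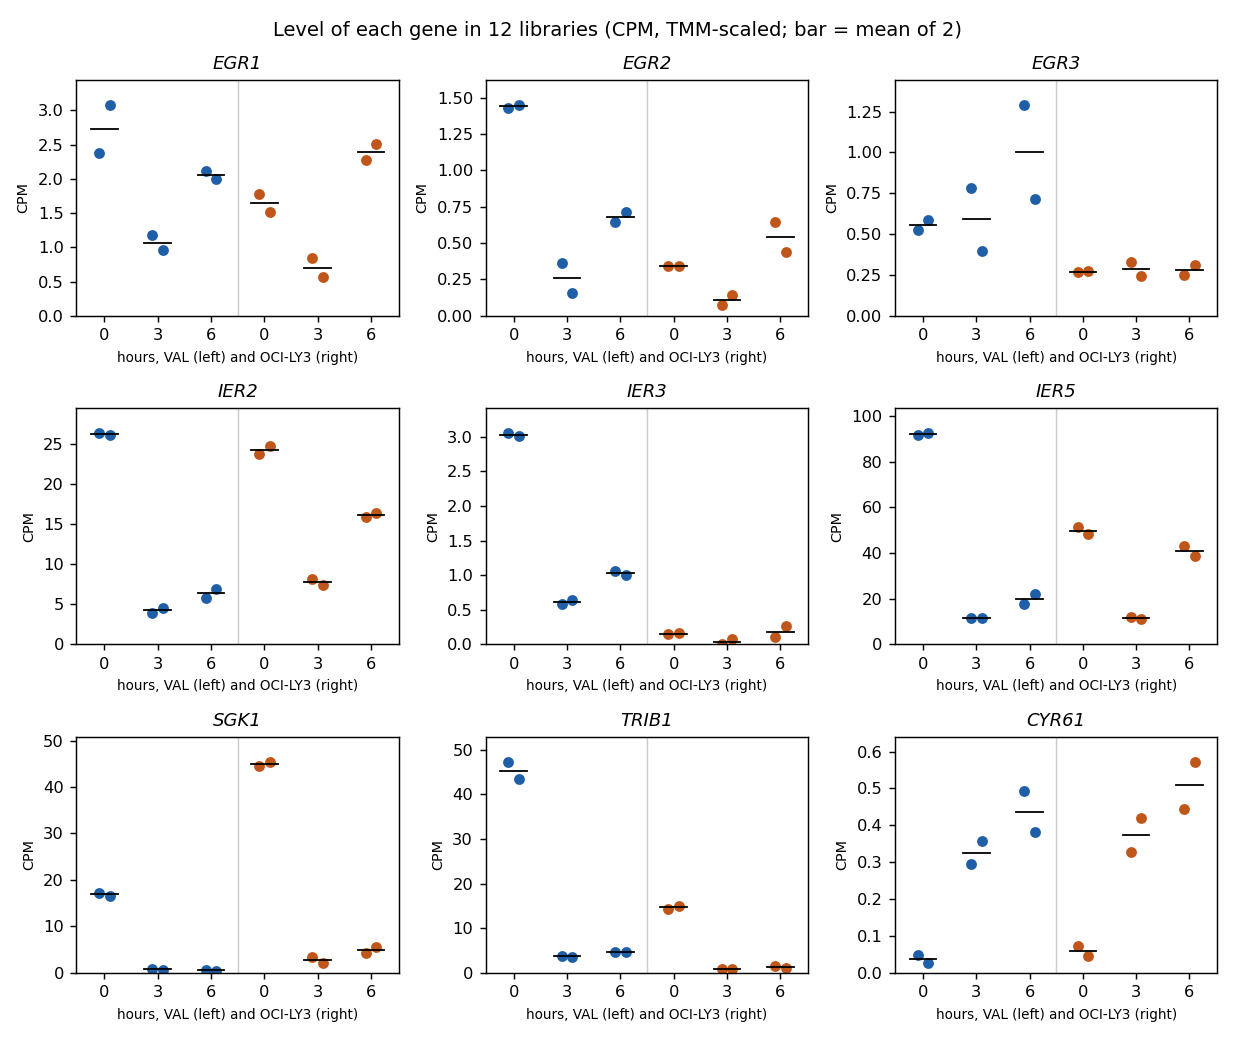
Level of each gene in CPM (y axis, linear from 0, its own scale per panel) in each library of VAL (blue) and OCI-LY3 (orange) at 0, 3 and 6 h of AZ5576; bars are the means of 2 libraries. IER5 holds 11.2 to 12 CPM in all 4 libraries at 3 h and then rises further in OCI-LY3, EGR3 overlaps between 0 h and 3 h, and CYR61 is below 0.1 CPM at 0 h.

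EGR1, the founding member of its zinc-finger family, was low in both lines and fell at 3 h, to 39.0% of its 0 h level in VAL and 42.5% in OCI-LY3. In VAL its level was 2.38 and 3.08 CPM at 0 h, 1.18 and 0.956 at 3 h, then 2.12 and 2.00 at 6 h. The OCI-LY3 libraries gave 1.78 and 1.51 CPM at 0 h, 0.839 and 0.561 at 3 h, then 2.28 and 2.51 at 6 h. At 6 h both VAL libraries lay just below both untreated ones, as in 39.5% of all tested genes. Both OCI-LY3 libraries lay above theirs, as in 40.2%. The log2 change at 3 h was -1.34 ± 0.239 in VAL and -1.23 ± 0.265 in OCI-LY3 (edgeR adjusted p = 0.000766 and 0.00349). Neither 6 h value passed, at -0.40 in VAL (edgeR adjusted p = 0.135) and 0.54 in OCI-LY3 (0.0632). The VAL value passed with no composition factor (-0.89, edgeR adjusted p = 0.00735) and in the scalings described at the end, and its p over all alternatives ranged from 2.16e-13 to 1. Over the alternatives the p of the OCI-LY3 value ranged from 0.0052 to 1, and its sign turned in those scalings.

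EGR2, a zinc-finger factor of myelinating and immune cells, followed EGR1 at lower counts. In VAL it stood at 1.43 and 1.45 CPM at 0 h, 0.360 and 0.159 at 3 h, then 0.643 and 0.714 at 6 h. In OCI-LY3 it stood at 0.342 and 0.339 CPM at 0 h, 0.0730 and 0.140 at 3 h, then 0.643 and 0.440 at 6 h. The VAL libraries at both times lay below the untreated ones, while those of OCI-LY3 lay below them at 3 h and above them at 6 h. The log2 changes in VAL were -2.41 ± 0.357 and -1.09 ± 0.314 (edgeR adjusted p = 0.000215 and 0.0102), and in OCI-LY3 -1.63 ± 0.513 at 3 h (0.0252) and 0.65 at 6 h (0.171). The 3 h fall in OCI-LY3 rested on 6 counts against 29 and did not pass without OCI-LY3 0 h replicate 1 (edgeR adjusted p = 0.0901), 0 h replicate 2 (0.0922), 3 h replicate 1 (0.168) or 3 h replicate 2 (0.0565), nor in DESeq2 (0.106). The 6 h fall in VAL did not pass without VAL 6 h replicate 1 (edgeR adjusted p = 0.0529), in DESeq2 (0.0821) or in limma-voom with group weights (0.0733).

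EGR3, a relative with a role in lymphocyte activation, showed no change that passed. In VAL it was at 0.524 and 0.586 CPM at 0 h, 0.784 and 0.398 at 3 h, then 1.29 and 0.714 at 6 h. In OCI-LY3 it was at 0.268 and 0.271 CPM at 0 h, 0.328 and 0.245 at 3 h, then 0.247 and 0.308 at 6 h. Only the VAL libraries at 6 h lay apart from the untreated ones, above them, as in 42.5% of all tested genes. The log2 values were 0.12 and 0.87 in VAL (edgeR adjusted p = 0.813 and 0.0577) and 0.08 and 0.05 in OCI-LY3 (0.922 and 0.961). The 6 h value in VAL passed without VAL 3 h replicate 1 (0.0415), VAL 3 h replicate 2 (0.0409) or VAL 6 h replicate 2 (0.0192), and the range over all alternatives was 0.00513 to 0.717. The pooled OCI-LY3 counts, 16 and 23, gave a ratio at 3 h of 1.06 with an interval of 0.523 to 2.10. An overlapping transcript on the other strand, AC055854.1, had at most 7 counts in a library, and an unstranded kit cannot tell its reads from those of EGR3.

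CYR61, a secreted matrix protein of the CCN family known as a target of YAP, had higher counts in treated cells, at very low depth. VAL had 2 and 1 counts at 0 h, 9 and 9 at 3 h, then 13 and 8 at 6 h. OCI-LY3 had 3 and 2 counts at 0 h, 9 and 12 at 3 h, then 9 and 13 at 6 h. Every treated library thus held more counts than both untreated libraries of its line. The pooled ratio to 0 h in VAL was 8.75 at 3 h (95% counting interval 2.55 to 46.4) and 12 at 6 h (3.58 to 62.8). In OCI-LY3 it was 6.40 at 3 h (2.35 to 21.7) and 8.73 at 6 h (3.23 to 29.5). These ratios carry no test, because CYR61 passed the filter on low counts through treated libraries alone. The summed level of 10 stromal and epithelial markers was 0.331 to 0.333 CPM in VAL at 0 h, 0.523 to 1.35 at 3 h and 0.476 to 0.833 at 6 h, with COL1A2, LUM and KRT18 at 0. In OCI-LY3 it was 28.9 to 34.0, 67.5 to 67.9 and 97.4 to 104 CPM, nearly all of it COL1A1, with DCN, LUM, EPCAM and KRT18 at 0. Their part in the higher CYR61 counts was not tested.

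Between 3 h and 6 h several messages came back in part. In VAL 4 of 9 were higher at 6 h than at 3 h and none lower, where 7.54% of all tested genes were higher and 15.3% lower. These were EGR2 (1.33), EGR1 (0.94), IER5 (0.77) and IER2 (0.58 on the log2 scale), with edgeR adjusted p-values of 0.0403, 0.0218, 0.00166 and 0.0133. In OCI-LY3 5 of 9 were higher and none lower, against 12% and 16.3% of all genes. These were EGR2 (2.28), IER5 (1.82), EGR1 (1.77), IER2 (1.05) and SGK1 (0.86), with edgeR adjusted p-values of 0.00749, 1.71e-05, 0.000788, 0.000236 and 0.0163. TRIB1 did not pass in either line, at 0.33 in VAL (edgeR adjusted p = 0.118) and 0.67 in OCI-LY3 (0.0654). It passed in OCI-LY3 with DESeq2 size factors (edgeR adjusted p = 0.0458) and in OCI-LY3 fitted alone (0.0426), and in both lines with a minimum mean of 5 CPM (0.0157 in VAL and 0.0202 in OCI-LY3). SGK1 in VAL gave -0.30 (edgeR adjusted p = 0.636), and IER3 gave 0.75 in VAL (0.163) and 2.25 in OCI-LY3 (0.0734).

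Single libraries decided some of these rises. In VAL, EGR2 passed only without VAL 3 h replicate 1 or OCI-LY3 3 h replicate 2; with any other library left out its edgeR adjusted p was 0.0516 to 0.195. EGR1 did not pass without VAL 3 h replicate 2 (edgeR adjusted p = 0.0985) or VAL 6 h replicate 1 (0.0751), nor IER2 without VAL 3 h replicate 1 (0.0674) or VAL 6 h replicate 2 (0.0779). In OCI-LY3, EGR2 did not pass without 3 h replicate 1 (edgeR adjusted p = 0.0608) or 6 h replicate 1 (0.0636), nor SGK1 without 3 h replicate 2 (0.140) or 6 h replicate 2 (0.151). IER5 passed in both lines with each library left out in turn, but in VAL it did not with limma-voom and 1 weight per group (adjusted p = 0.0663). The treated VAL replicates lay far apart, with a chi-square of 63.7 per degree of freedom over genes at 3 h and 51.9 at 6 h, against 1.66 at 0 h. With mitochondrial or ribosomal protein mRNAs held level, 0 of the 4 rises in VAL passed.

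At 6 h IER5, IER2, SGK1 and EGR2 were less far below their 0 h level in OCI-LY3 than in VAL, or above it. In the test of the difference between the lines of the change from 0 h to 6 h 4 of 9 genes passed, all with the higher value in OCI-LY3, where 12.3% of all genes did so and 14.4% the reverse. The differences, OCI-LY3 minus VAL, were 1.94 ± 0.175 for IER5 (edgeR adjusted p = 0.000121), 1.47 ± 0.182 for IER2 (0.000471), 1.68 ± 0.358 for SGK1 (0.00680) and 1.74 ± 0.506 for EGR2 (0.0273). EGR1 gave 0.94 (edgeR adjusted p = 0.0518). The SGK1 difference did not pass in limma-voom with group weights (adjusted p = 0.0625), nor that of EGR2 in DESeq2 (adjusted p = 0.0602). The difference between lines of the change from 3 h to 6 h was not tested. IER5 was thus at 82.5% of its 0 h level in OCI-LY3 and 21.6% in VAL, and IER2 at 66.8% and 24.2%. The EGR2 difference did not pass without VAL 0 h replicate 1 or 2, VAL 6 h replicate 1, OCI-LY3 0 h replicate 1 or 2, or OCI-LY3 6 h replicate 1 (edgeR adjusted p = 0.0673 to 0.138).

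At 3 h the lines differed in 2 of the 9, with 2.73% of all genes higher in OCI-LY3 and 3.30% lower. IER2 (0.99 ± 0.185, edgeR adjusted p = 0.0159) and IER5 (0.89 ± 0.178, 0.0199) had fallen less in OCI-LY3. TRIB1 gave -0.58 (edgeR adjusted p = 0.117). The IER2 difference did not pass without OCI-LY3 0 h replicate 1 (edgeR adjusted p = 0.0558) or 3 h replicate 1 (0.0921). That of IER5 did not pass without either 0 h library of VAL or of OCI-LY3, or without OCI-LY3 3 h replicate 1 (0.0587 to 0.105).

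Most other immediate-early genes fell as well. Of 31 listed, 26 were tested. In VAL at 3 h 19 fell, PHLDA1 rose and 6 did not pass, with a median log2 change of -2.70, where 25.1% of all genes fell and 29.6% rose. PLK2 and RHOB had no count in OCI-LY3 and could not fall there. Of the other 24, 17 fell in OCI-LY3 at 3 h, PHLDA1 rose and 6 did not pass, with a median of -2.32. The shares of all genes there were 24.3% lower and 17.8% higher. KLF2 and ATF3, at 0 and 0.0113 CPM in untreated OCI-LY3, are among those not passing. Some genes counted as falling, among them DUSP1, DUSP5, DUSP6 and IER5L, passed the filter on low counts through untreated libraries alone. For such genes the filter worked toward a fall. They remain in the counts and medians at 3 h and 6 h, and their part in these was not tested. DUSP2, a phosphatase of MAP kinases, changed by -4.05 ± 0.167 and -3.49 ± 0.164, CSRNP1, a nuclear factor, by -3.57 ± 0.152 and -3.58 ± 0.147, and JUNB, an AP-1 subunit, by -3.12 ± 0.139 and -2.30 ± 0.127 in VAL and OCI-LY3. ZFP36, whose protein destabilises AU-rich messages, changed by -2.92 ± 0.147 in VAL, and the kinase PLK3 by -3.61 ± 0.222 in OCI-LY3. PHLDA1 was the exception in every comparison, at 0.806 CPM in VAL at 0 h, 10.0 at 3 h and 46.4 at 6 h, and 0.590, 7.95 and 31.4 CPM in OCI-LY3.

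At 6 h 17 of 26 fell in VAL, 2 rose and 7 did not pass (median -1.92), where 32.2% of all genes fell and 34% rose. In OCI-LY3 13 of the 24 with a count fell, 2 rose and 9 did not pass (median -1.08), where 33.4% of all genes fell and 28.1% rose. The lists were not tested against each other. KLF6 in VAL (1.49, edgeR adjusted p = 0.00596) and GADD45B in OCI-LY3 (0.63, 0.00623) joined PHLDA1 among the risers.

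**Figure D3:**
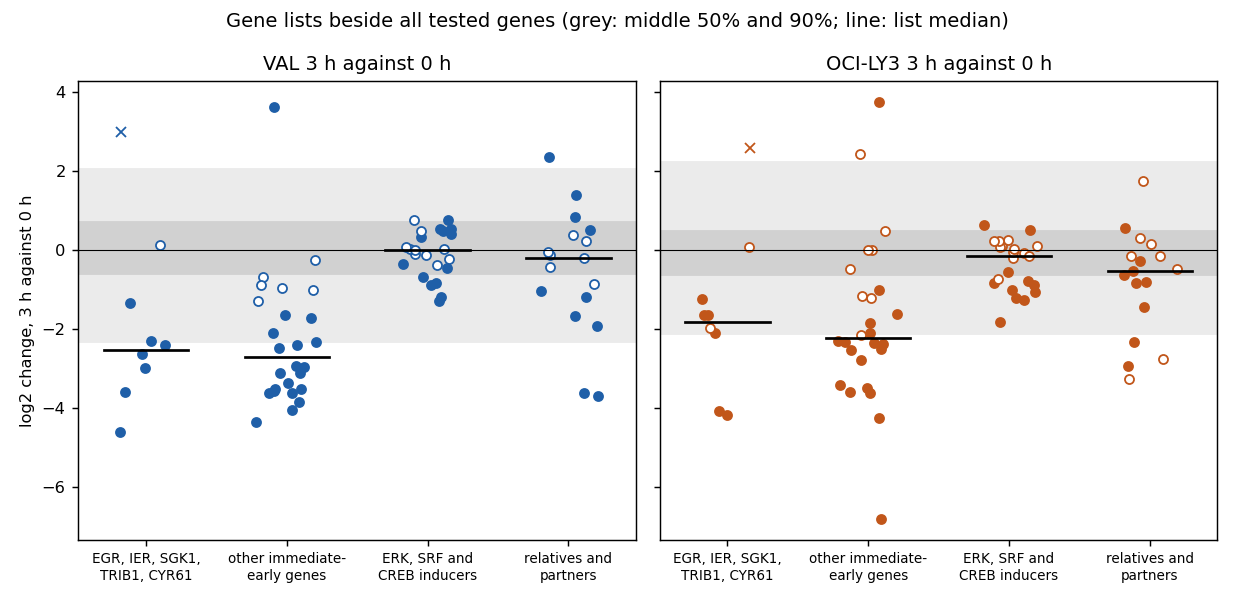
Log2 change at 3 h against 0 h in VAL (left) and OCI-LY3 (right) for the 9 genes and 3 related lists; each point is a tested gene, filled where the edgeR adjusted p is under 0.05, the line is the list median, the cross is CYR61, left out of its median, and grey bands hold the middle 50% and 90% of all tested genes. The other 8 of the 9 genes (medians -2.52 and -1.81) and the other immediate-early genes (-2.70 and, with 2 uncounted genes at 0, -2.23) lie low, while the ERK, SRF and CREB genes centre on 0.00 and -0.15.

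The kinases and factors that induce immediate-early genes moved both ways at 3 h. Of 23 tested, 7 fell and 6 rose in VAL at 3 h (median 0.00), where 25.1% and 29.6% of all genes did. In OCI-LY3 9 fell and 2 rose (median -0.15), where 24.3% and 17.8% of all genes did. At 6 h 11 fell and 3 rose in VAL (median -0.29), and 13 fell and 2 rose in OCI-LY3 (median -0.67). The shares of all genes lower and higher at 6 h were 32.2% and 34% in VAL, and 33.4% and 28.1% in OCI-LY3. SRF was lower at both times in both lines, by -1.30 ± 0.125 and -1.88 ± 0.129 in VAL and -1.07 ± 0.124 and -1.66 ± 0.127 in OCI-LY3. Its coactivator MKL1 gave -0.88 ± 0.107, -1.63 ± 0.11, -1.20 ± 0.108 and -1.53 ± 0.11 in the same order. The ERK kinase MAPK3 was higher in all 4 comparisons, by 0.75, 1.04, 0.63 and 0.87.

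Among 22 relatives and protein partners of the 9 genes, 17 were tested. In VAL 6 fell and 4 rose at 3 h, against 25.1% and 29.6% of all genes, and 8 fell and 4 rose at 6 h, against 32.2% and 34%. In OCI-LY3 8 fell and 1 rose at 3 h, against 24.3% and 17.8%, and 9 fell and 1 rose at 6 h, against 33.4% and 28.1%. NAB2, the corepressor that EGR proteins both induce and bind, went from 12.5 CPM in VAL to 3.94 and 4.45, and from 11.9 in OCI-LY3 to 2.37 and 3.58. CEBPB, a C/EBP factor of the family that TRIB1 marks for degradation, changed by -3.69 ± 0.251 at 3 h in VAL and -2.92 ± 0.237 in OCI-LY3. TRIB3, a relative of TRIB1, was at 40.9 CPM in VAL and fell by 3.61 on the log2 scale at 3 h, but was at 0.0235 CPM in untreated OCI-LY3. RFWD2, which encodes COP1, changed by -1.91 ± 0.138 at 3 h in VAL, while its value in OCI-LY3 was -0.16 ± 0.132 at 3 h (edgeR adjusted p = 0.373) and -0.74 ± 0.134 at 6 h (0.000625). SGK2, a relative of SGK1, stood at 0.0986 CPM in VAL at 0 h, 0.513 at 3 h and 0.635 at 6 h. It passed the filter on low counts through treated libraries alone, so it could only be higher there.

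Neither of 2 lists tied to single members moved one way. Of the glucocorticoid-responsive genes, listed because SGK1 is one, 5 of 6 were tested: 2 fell and 2 rose in VAL at 3 h, and 3 fell and 1 rose in OCI-LY3. At 6 h 1 fell and 2 rose in VAL, and 3 fell and 1 rose in OCI-LY3. The shares of all tested genes that fell and rose were 25.1% and 29.6% in VAL at 3 h and 24.3% and 17.8% in OCI-LY3. At 6 h these shares were 32.2% and 34% in VAL, and 33.4% and 28.1% in OCI-LY3. The clock gene PER1 fell by 1.56 in VAL and 1.83 in OCI-LY3 at 3 h, while the transcription factor KLF9 stood at 0.124 CPM in untreated VAL and 1.78 at 3 h. KLF9, one of the 5 tested, passed the filter on low counts through treated libraries alone, so it could only be higher there. Of YAP and TEAD genes, listed because CYR61 is one, 7 of 13 were tested: 2 fell and 1 rose in VAL at 3 h, and 1 fell and 1 rose in OCI-LY3. At 6 h 2 fell and 2 rose in VAL, and 1 fell and 2 rose in OCI-LY3. The kinase NUAK2 changed by -3.87 ± 0.2 and -3.44 ± 0.266 at 3 h in VAL and OCI-LY3, and TEAD2 rose by 1.61 ± 0.289 in VAL.

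Likeness between the genes is described by Pearson correlations of log2 CPM over the 12 libraries, after the mean of each line was taken off; the libraries share depth, line and time. The closest pairs were IER2 and IER5 at 0.984 and SGK1 and TRIB1 at 0.972. IER2 and SGK1 gave 0.919, IER3 and IER5 0.909, EGR1 and EGR2 0.895, and EGR2 and IER5 0.894. EGR1 gave 0.508 with TRIB1 and 0.530 with SGK1, EGR3 lay between -0.260 and 0.332 with every other gene, and CYR61 and TRIB1 gave -0.950. The most similar genes of at least 5 CPM were FAM122A (0.998), UCK1 and AKIRIN2 for TRIB1; CDC42EP3 (0.992), SEMA4B and C3orf58 for SGK1; and NUAK2 (0.995), KLHL26 and BAG5 for IER5. For IER2 they were HPS6 (0.991), CD83 and PIM2, for EGR1 TICAM1 (0.961), ETV3 and WEE1, and for EGR2 ZNF557 (0.981), ZNF121 and MEX3C. For IER3 they were FBRS (0.940), MIDN and JUNB, for CYR61 TCIRG1 (0.989), PPDPF and CHTF18, and for EGR3 PGBD4 (0.890), ZSCAN30 and KIAA1328.

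RNA-seq without added standards gives each gene relative to the rest, and the scaling moved all values. Holding mitochondrially encoded mRNAs level shifted the median of all tested genes to -1.23 and -2.06 at 3 h and 6 h of VAL, and to -1.09 and -1.55 in OCI-LY3. Holding ribosomal protein mRNAs level shifted it to -0.67, -1.22, -0.65 and -1.12. The falls of SGK1, TRIB1, IER5, IER2, EGR2, IER3 and EGR1 that passed at 3 h also passed under both scalings. The log2 value of CYR61, described without a test, shrank from 3.00 and 3.44 in VAL and 2.59 and 3.04 in OCI-LY3 to 1.67 and 1.34, and 1.5 and 1.53, with mitochondrial mRNAs level. With ribosomal protein mRNAs level it was 2.20 and 2.16 in VAL and 1.94 and 1.95 in OCI-LY3. At 6 h in OCI-LY3, IER5 became -1.83 and -1.40 under the mitochondrial and ribosomal protein scaling and passed in both. EGR1 there became -1.01 (edgeR adjusted p = 0.00520) and -0.59 (0.0959), and in VAL at 6 h it became -2.60 and -1.75 and passed in both. EGR3 in VAL at 6 h turned from 0.87 to -1.33 (edgeR adjusted p = 0.00513) and -0.44 (0.431).

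**Figure D4:**
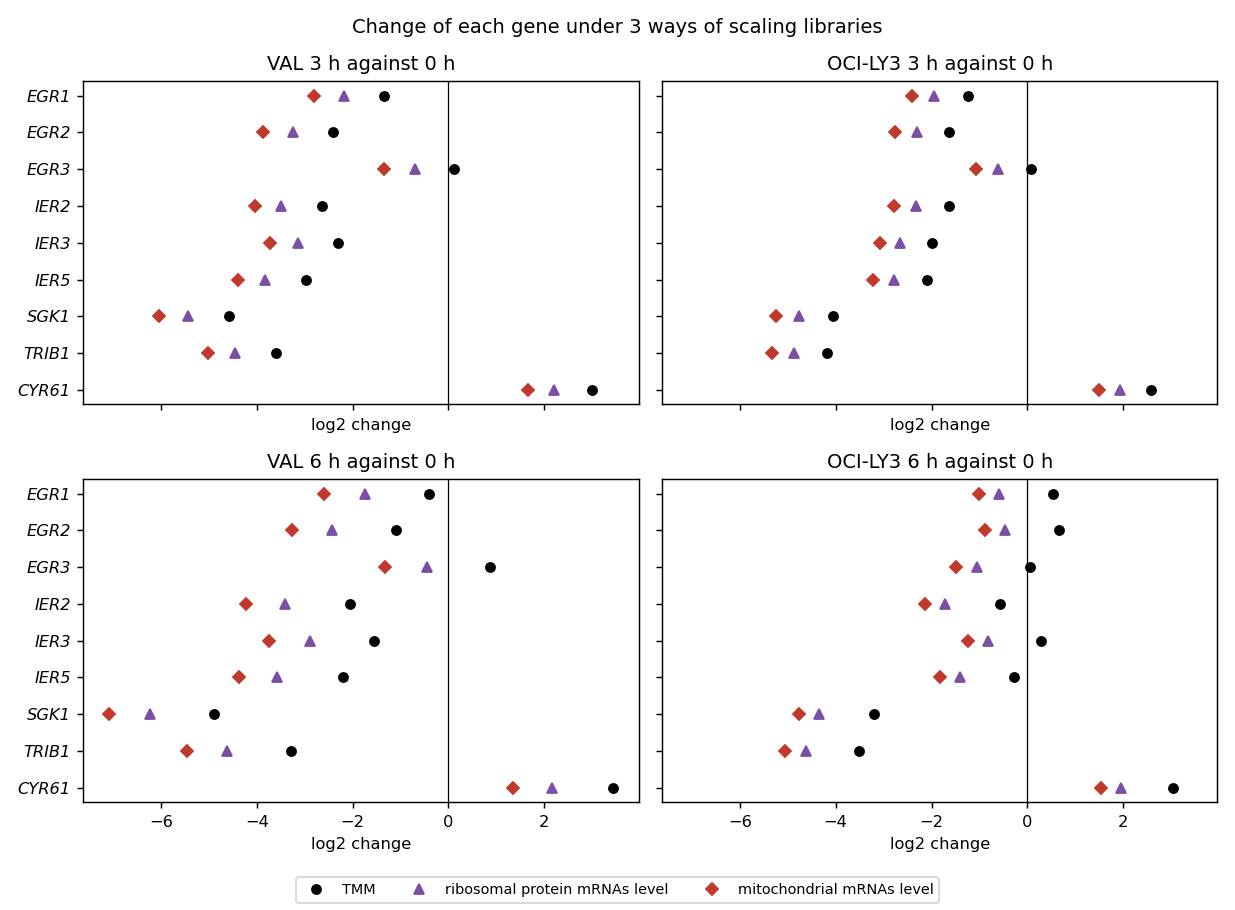
Log2 change of each gene against 0 h (x axis) in the 4 comparisons, with libraries scaled by TMM (black circles), with ribosomal protein mRNAs level (purple triangles) or with mitochondrially encoded mRNAs level (red diamonds). All genes move left by a like amount, SGK1 and TRIB1 stay lowest, and EGR3, and at 6 h in OCI-LY3 EGR1, EGR2 and IER3, cross 0.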

How the data were processed

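Per the labels' protocols, poly(A)+ RNA went into an unstranded Illumina TruSeq v2 kit and was sequenced as single reads. The deposited raw table holds whole read counts of 58233 genes. A second deposited table holds expression normalized by the authors on a log2 scale. Per the submitters' processing notes GRCh38 and DESeq2 were used; the sources used here do not give the aligner, counter or annotation release.

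The 9 genes and all lists were chosen with earlier results of these data known. Genes kept by edgeR's filterByExpr, 16374 in number, were fitted in 1 model of 6 groups (TMM, edgeR 4.0.16, R 4.3.3, quasi-likelihood test, 6 residual degrees of freedom). P-values are two-sided, adjusted by Benjamini-Hochberg within each of 9 comparisons, with 0.05 as threshold. Values after ± are standard errors. The steps were tested on simulated counts with the same spread in all libraries. The wide spread of the treated VAL replicates was not simulated, so error rates in these data were not checked. Levels per kilobase use the union of exons of GENCODE release 29, where 57895 identifiers were found. Lists name up to 4 genes with the smallest adjusted p per comparison with 0 h and those passing against the majority. The most similar genes need a mean of 5 CPM, with clone-based names left out and 2 added as prior count. Alternatives included DESeq2 1.42.0 and limma 3.58.1. Replicate numbers were not taken as pairs: replicate differences correlated at 0.50 between VAL 3 h and 6 h and at -0.04 to 0.06 in the other pairs of times within a line. Depth was 23175082 to 39715536 counts per library.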

Additional observations from a re-analysis of the deposited data

Results flagged for a closer look

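The difference between lines of the change from 0 h passed the test of that difference for 6 values, each with OCI-LY3 above VAL (edgeR's quasi-likelihood test, Benjamini-Hochberg adjustment, 2 libraries per group). At 3 h these were IER2, by 0.99 on the log2 scale (adjusted p = 0.0159), and IER5, by 0.89 (0.0199). At 6 h they were IER5, by 1.94 (edgeR adjusted p = 0.000121), EGR2, by 1.74 (0.0273), SGK1, by 1.68 (0.0068), and IER2, by 1.47 (0.000471). IER5 at 6 h passed in all 26 alternatives. Each line was run on its own lane, so line and lane cannot be told apart.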

How the results depend on the processing

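Over the alternatives, values of single genes kept direction and side of the threshold in 1554 cases, lost the call in 93, gained it in 69 and changed sign in 36.
Counts of higher genes against 0 h include CYR61, which passed the filter through treated libraries alone. Counts of lower genes in untreated OCI-LY3 include IER3, whose direction the filter fixed, wherever it was tested.
With DESeq2's size factors, 2 genes were higher in VAL at 6 h and 2 in OCI-LY3 at 6 h, against 1 each.
Holding mitochondrial mRNAs level left 0 higher in each of the 4 comparisons with 0 h and in VAL 6 h against 3 h (from 4), 3 higher in OCI-LY3 6 h against 3 h (from 5), 6 lower in OCI-LY3 at 6 h (from 3), and 0 different between lines at 3 h (from 2).
Holding ribosomal protein mRNAs level also left 0 higher in VAL 6 h against 3 h.
A minimum mean of 5 CPM kept 4 of the genes, giving 4 lower in VAL at 3 h (from 7), 3 lower in untreated OCI-LY3 (from 5) and 0 higher against 0 h, since CYR61 was not tested.
Limma-voom with group weights gave 0 higher in VAL 6 h against 3 h and 2 in OCI-LY3 at 6 h, and limma on the deposited log2 table gave 2 in the latter.
With each line fitted alone, 0 were higher in VAL at 3 h and at 6 h (CYR61 was not tested), 1 in VAL 6 h against 3 h and 2 in OCI-LY3 at 6 h.
A 2-fold minimum left 0 higher in VAL 6 h against 3 h, 1 in OCI-LY3 6 h against 3 h, 3 lower in untreated OCI-LY3, and 0 and 1 different between lines at 3 h and 6 h.
Without both treated VAL libraries numbered 1, 2 genes were higher in OCI-LY3 at 6 h; without those numbered 2, 2 were higher there, 2 in VAL at 6 h and 2 in VAL 6 h against 3 h.
Leaving out 1 library gave 0 to 2 higher in the difference at 3 h, 3 to 6 in that at 6 h, 1 to 2 higher in OCI-LY3 at 6 h, 1 to 2 in VAL at 6 h, 2 to 4 in VAL 6 h against 3 h, 4 to 5 in OCI-LY3 6 h against 3 h, 4 to 6 lower in untreated OCI-LY3, 5 to 6 lower in OCI-LY3 at 3 h, 3 to 4 at 6 h and 5 to 6 in VAL at 6 h.

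Signs changed as follows. EGR3 in VAL at 3 h (0.12) became -0.23 with no composition factor, -1.34 and -0.70 with mitochondrial and ribosomal protein mRNAs level, -0.03 with no filter, -0.01 with each line alone and -0.47 without both treated VAL libraries numbered 1. EGR3 in VAL at 6 h became -1.33 and -0.44 under the mitochondrial and ribosomal protein scaling. EGR3 in OCI-LY3 at 3 h became -0.12 with no composition factor and -1.07 and -0.61 under these scalings, and at 6 h -0.32, -1.49 and -1.06, and -0.01 with no filter. IER3 in OCI-LY3 at 6 h became -0.08, -1.24 and -0.83 under the same 3 scalings. EGR1 there became -1.01 and -0.59, and EGR2 -0.89 and -0.46, under the mitochondrial and ribosomal protein scaling. In VAL 6 h against 3 h, mitochondrial scaling gave -0.19 for IER2, -0.01 for IER3 and -0.44 for TRIB1, for which ribosomal protein scaling gave -0.17. IER2 between untreated lines became 0.06 with the latter.
Leaving out 1 library gave -0.48 to 0.48 for EGR3 in VAL at 3 h, -0.14 to 0.32 in OCI-LY3 at 3 h and -0.14 to 0.18 at 6 h, -0.62 to 0.77 for IER3 in OCI-LY3 at 6 h, and -0.71 to 0.01 for SGK1 in VAL 6 h against 3 h. In the cases of changed sign the cause was not tested.

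With the replicate number as a block, the pairing moved EGR2 in VAL 6 h against 3 h to an adjusted p of 0.0521 and EGR1 between untreated lines to 0.0724, while EGR3 between untreated lines (0.0434) and the EGR1 difference at 6 h (0.0485) passed. The block gave 3 higher in VAL 6 h against 3 h and 5 in the difference at 6 h, and changed no other call of a reported value. Depth limits IER3 in OCI-LY3, EGR2 in OCI-LY3 and in treated VAL, EGR3 and CYR61, whose groups held 2 to 49 counts.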

Other observations

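The CArG box, the element seen in EGR1 and EGR2, was sought within 250 bases before the RefSeq starts of all tested genes. Of 168 tested genes with a box, 24.4% were lower in VAL at 3 h against 28.2% of 11059 tested genes with a promoter in the table. In OCI-LY3 at 3 h the shares were 25.6% and 27.6%. At 6 h they were 31.0% and 36.6% in VAL and 32.1% and 38.4% in OCI-LY3. Genes with TGACGTCA, the full CREB site, numbered 374, of which 31.6% were lower at 3 h in VAL and 31.6% in OCI-LY3. At 6 h 43.3% were lower in VAL and 47.3% in OCI-LY3. These shares are descriptions without a test.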
